A study of Mus musculus with 2 samples.

Results

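The limb list of tissue-specifically transcribed regions (TSTRs) holds 1078 intergenic stretches of the mouse genome that gave more RNA in embryonic limb than in heart. Isolated regions were taken as those lying more than 10000 bp from the next region of the same list, by chromosome, start and end alone. By this rule 576 limb TSTRs were isolated, 502 were clustered, and none was the sole region of its chromosome. The heart list, used here for comparison, held 356 isolated and 478 clustered regions, which makes 1912 regions in both lists. Limb and heart were microdissected from CD-1 wild-type strain embryos at embryonic day 11.5, and tissue of several embryos was combined into 1 pool per tissue, sequenced as total RNA after removal of ribosomal RNA. No line, transgene or treatment was involved, and forelimb and hindlimb are not separated in the labels. The tables list intergenic regions only and no gene levels, so the tissue labels could not be checked against marker genes. Each region has its read count and its RPKM (its reads per base, scaled to the depth of each library) in both tissues. Count, RPKM and length imply totals of 222362239 heart reads and 192488089 limb reads. With a single pool per tissue there is no spread between samples, so no difference below has a test. Intervals are exact 95% intervals from the reads of the 2 libraries, and they cover counting error only.

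Intergenic RNA of this kind can have several sources. Enhancers, which act on genes over long distances, are often transcribed into short, unstable enhancer RNAs. Active promoters also send transcripts away from the gene, and polymerase commonly runs past the annotated end of a gene before it stops. Small structured RNAs such as tRNAs and some snoRNAs come from short genes of their own. Limb buds at this stage consist of mesenchyme under an ectodermal cover, patterned by transcription factors such as Shox2, Lmx1b and the T-box and Gli families and by Bmp, Fgf, Wnt and hedgehog signals.

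The sequences below show the kinds of isolated region that the values turn on, each as 200 bases of the plus strand of NCBIM37, the mm9 build of the files. The first set holds the A or T runs found in the regions with the most reads per length. The window is centred on the run, whose bases are in capitals.
Region with the most limb reads (chr10:105467886-105468085): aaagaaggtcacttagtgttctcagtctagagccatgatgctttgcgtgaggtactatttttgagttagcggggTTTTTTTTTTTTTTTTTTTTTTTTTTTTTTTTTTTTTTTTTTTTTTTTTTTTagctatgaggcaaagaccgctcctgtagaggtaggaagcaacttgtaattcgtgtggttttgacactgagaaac
Region with the longest run (chrX:42435241-42435440): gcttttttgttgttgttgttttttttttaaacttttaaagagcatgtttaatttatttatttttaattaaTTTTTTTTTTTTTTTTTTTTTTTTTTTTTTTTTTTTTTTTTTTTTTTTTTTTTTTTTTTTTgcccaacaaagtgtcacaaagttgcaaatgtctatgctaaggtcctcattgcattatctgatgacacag

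The second set is centred on letters of the B box (GTTCGANTC, either strand), the internal promoter element of tRNA genes, given in capitals. The regions had 762 and 264 limb reads.
Region near Hes7 (chr11:68923924-68924123): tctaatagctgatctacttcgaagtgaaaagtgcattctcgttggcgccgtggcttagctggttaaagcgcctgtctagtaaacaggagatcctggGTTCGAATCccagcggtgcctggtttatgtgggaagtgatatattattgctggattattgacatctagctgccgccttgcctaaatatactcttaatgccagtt
Region near Gpx5 (chr13:21371521-21371720): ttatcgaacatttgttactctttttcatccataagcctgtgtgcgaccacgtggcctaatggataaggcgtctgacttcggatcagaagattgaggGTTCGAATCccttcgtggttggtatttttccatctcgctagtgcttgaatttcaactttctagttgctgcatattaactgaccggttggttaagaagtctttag

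The third set is the centre of 2 regions that end just upstream of a gene start, with CpG dinucleotides in capitals. Both are richer in CpG than most such regions, with observed over expected CpG of 0.803 and 0.916 where the median was 0.537.
Region upstream of Cd24a (chr10:43298150-43298349): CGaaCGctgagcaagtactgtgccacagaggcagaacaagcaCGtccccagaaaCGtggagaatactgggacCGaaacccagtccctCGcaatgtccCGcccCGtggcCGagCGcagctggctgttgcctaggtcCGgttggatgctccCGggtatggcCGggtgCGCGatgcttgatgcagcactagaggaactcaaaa
Region upstream of Lphn3 (chr5:81448740-81448939): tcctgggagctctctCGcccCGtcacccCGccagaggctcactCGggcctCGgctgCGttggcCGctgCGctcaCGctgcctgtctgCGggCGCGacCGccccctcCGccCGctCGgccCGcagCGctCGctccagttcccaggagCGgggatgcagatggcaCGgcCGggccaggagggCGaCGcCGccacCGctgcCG

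The fourth set is the centre of the 4 regions with the most limb reads among those without heart reads. Capitals mark letters of the homeodomain (TAATTA) and GATA factor (AGATAA) motifs. The HOX13, PITX, TBX, E-box, SOX, TEAD and GLI motifs, spelled out with the motif shares, had no match in these windows.
Region closest to Cbln1 (chr8:89877393-89877592): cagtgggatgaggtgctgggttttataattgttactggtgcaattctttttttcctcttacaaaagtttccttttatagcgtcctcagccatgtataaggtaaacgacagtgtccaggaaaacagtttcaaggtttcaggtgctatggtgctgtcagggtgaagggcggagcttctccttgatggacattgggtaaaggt
Region closest to H2afy (chr13:56063595-56063794): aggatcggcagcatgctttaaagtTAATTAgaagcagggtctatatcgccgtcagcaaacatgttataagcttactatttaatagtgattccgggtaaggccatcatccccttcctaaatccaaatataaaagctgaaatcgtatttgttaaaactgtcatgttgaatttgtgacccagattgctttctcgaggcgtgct
Region closest to Calcoco1 (chr15:102591148-102591347): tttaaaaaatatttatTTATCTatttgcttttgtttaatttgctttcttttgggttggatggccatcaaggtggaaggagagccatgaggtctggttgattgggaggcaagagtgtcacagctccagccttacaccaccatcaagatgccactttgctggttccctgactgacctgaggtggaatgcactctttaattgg
Region closest to Bhlha9 (chr11:76488491-76488690): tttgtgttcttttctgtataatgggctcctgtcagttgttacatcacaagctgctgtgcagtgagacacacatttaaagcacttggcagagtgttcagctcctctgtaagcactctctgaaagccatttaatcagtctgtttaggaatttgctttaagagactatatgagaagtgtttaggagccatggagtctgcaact

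Isolated limb TSTRs were short and thinly covered. Their length ran from 202 to 1854 bp with a median of 340 bp, while clustered limb TSTRs had a median of 757 bp. Shorter than 300 bp were 217 isolated regions (37.7%), against 59 clustered regions (11.8%). The lower end lies close to the 200 bp to which the authors extended each alignment. Limb reads ran from 10 to 4328 per region with a median of 31, and heart reads from 0 to 3381 with a median of 7. Isolated heart TSTRs were short and thinly covered too. Their median length was 305.5 bp, 45.5% were shorter than 300 bp, and their heart reads had a median of 29.5. Per length, isolated and clustered limb TSTRs were alike in the middle. The median limb RPKM was 0.335 in isolated and 0.349 in clustered regions, and the median heart RPKM was 0.0807 and 0.0933. At the top they differed, as 73 isolated regions (12.7%) and 35 clustered regions (6.97%) reached a limb RPKM of 1. In all, isolated regions held 53242 limb reads, or 55.6% of the limb reads of the list, on 294277 bp. The 10 isolated regions with the most limb reads held 35.6% of these. The shares of isolated regions by chromosome ran from 34.4% of 64 limb TSTRs on chromosome 16 to 88.6% of 35 on chromosome 7.

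Every limb TSTR was listed by the authors because it had more limb than heart reads (two-proportion z-test, p under 0.01), so the direction of the difference is given by the list. Its size varied widely. Limb RPKM was at least 4-fold the heart RPKM in 302 isolated regions (52.4%), where the whole limb list had 50.3%. Heart reads were absent from 65 isolated regions (11.3%), where the whole list had 12.1%. Both shares lay near those of the list. A region without heart reads is below the depth of this library, not shown to be silent, and for a ratio its heart count was set to 3 reads, 1.35e-06% of the heart total. Such ratios are written as at least N-fold, and do not include the counting error of the limb reads. The median tissue-specificity index, the difference of limb and heart RPKM over their sum, was 0.625 in isolated and 0.592 in clustered regions. Within ranges of read count the order was the other way. The median index of isolated and clustered regions was 0.765 and 0.884 at 10 to 19 limb reads, 0.603 and 0.644 at 20 to 49, 0.421 and 0.494 at 50 to 99, and 0.390 and 0.465 from 100 to under 1000. Only 2 clustered regions had more reads, with a median of 0.501. Under 20 limb reads were 33.9% of isolated and 17.7% of clustered regions, and no difference was tested. The index was lower at higher read counts in isolated regions, with a median of 0.331 in the 10 with 1000 limb reads or more, of which 7 held a long A or T run. The z-test admits a region of few reads only at a high ratio, and no isolated region of 10 to 19 reads was below 0.516. In whole-tissue RNA, fewer cells of a type and less RNA per cell cannot be told apart, which holds for every ratio here.

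**Figure D1:**
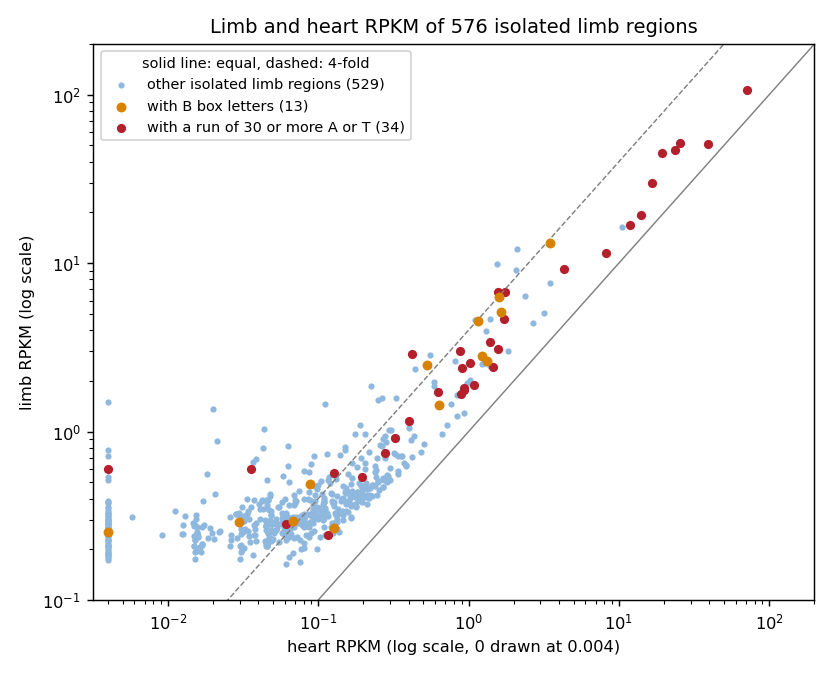
Heart RPKM (horizontal) against limb RPKM (vertical) of the 576 isolated limb TSTRs, 1 point per region, on log scales. Red points are the 34 regions with a run of at least 30 A or T, orange points the 13 with B box letters. The red points reach a limb RPKM of 106 and mostly lie between the solid line of equal RPKM and the dashed 4-fold line.

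The isolated regions with the most RNA per length held long runs of a single base, A or T. The 5 isolated regions with the highest limb RPKM all had a run of at least 30 bases, as did 8 of the first 10 and 12 of the first 20. In total 34 isolated limb TSTRs (5.9%) held such a run, against 3 clustered limb TSTRs (0.598%). The heart list divided in the same way, with 47 of 356 isolated regions (13.2%) and 1 of 478 clustered regions (0.209%). Runs of at least 40 bases occurred in 25 isolated limb and 35 isolated heart regions and in no clustered region of either list. The longest run was 61 bases in isolated limb regions and 80 bases in isolated heart regions, and the reads were 50 bases long.

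These 34 regions were few and short but held a large part of the reads. Their median length was 217.5 bp, and 31 of them were at most 260 bp long. Together they had 19665 limb reads, 36.9% of the limb reads of all isolated limb TSTRs, and 13181 heart reads, 50.6% of the heart reads there. Read density went with run length. Median limb RPKM was 1.67 in the 9 regions with runs of 30 to 39 bases, 1.86 in the 14 with 40 to 49 bases and 29.8 in the 11 with 50 bases or more. Their median index was 0.411, and their summed reads, scaled by the totals, were 1.72-fold higher in limb. In the other 542 isolated regions the median index was 0.633 and the summed ratio 3.02. Only 1 of the 34 had no heart reads. Of the 34, 27 lay more than 10 kb from any transcript start. Whether the reads of these regions came from the places listed was not tested.

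Members of this set had the most limb reads of all isolated regions. The region chr10:105467950-105468162 had 4328 limb and 3381 heart reads. Its RPKM was 106 in limb and 71.7 in heart, a ratio of 1.48 (interval 1.41 to 1.55), and its run was 52 bases long. The region chrX:42435301-42435532 had 2265 limb and 2009 heart reads, and its ratio of 1.30 (1.23 to 1.38) was the lowest of any isolated region. Both tissues were thus high in these regions. On chromosome 3, chr3:74785997-74786362 had 2095 limb and 1357 heart reads with a run of 51 bases. On chromosome 16, chr16:86958298-86958505 had 1862 and 1090 reads with a run of 53 bases. Their ratios were 1.78 and 1.97. The fifth region by limb RPKM, chr18:9573100-9573312, had 1843 limb and 912 heart reads and a limb RPKM of 45.2. Another member, chr1:8065815-8066033, with 480 limb and 401 heart reads, had the third lowest ratio, 1.38 (1.21 to 1.58).

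**Figure D2:**
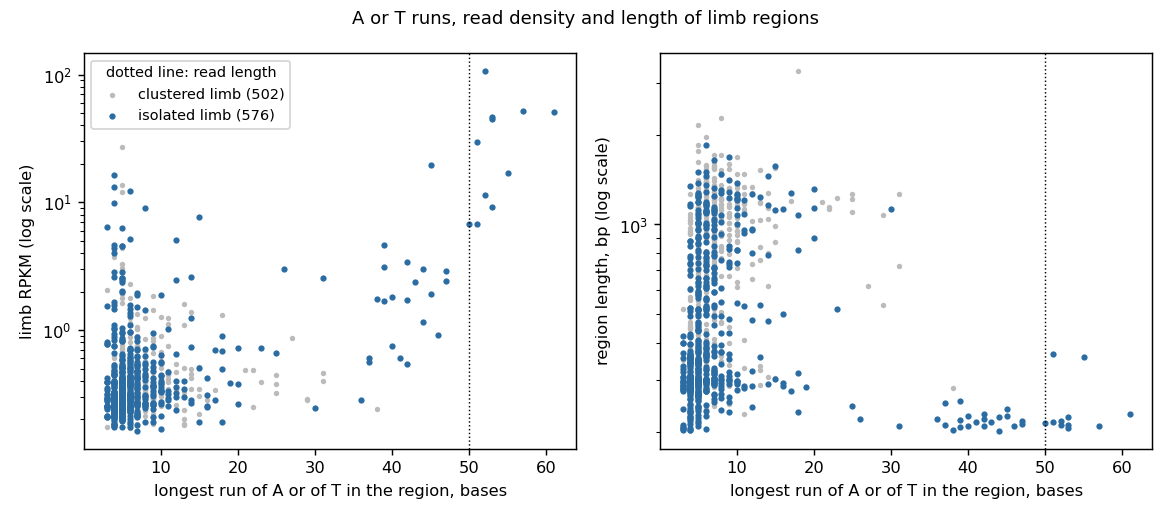
Longest run of A or of T in each limb TSTR (horizontal, bases) against its limb RPKM (left) and its length in bp (right), both on log scales. Isolated regions are blue and clustered regions grey, and the dotted line marks the read length of 50 bases. Isolated regions with runs of at least 50 bases have a limb RPKM of 6.74 or more, and clustered regions have no run above 38 bases.

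The 3 isolated regions farthest from any annotated start all belonged to the same set. The region chr3:11787336-11787552 lies 633000 bp from the closest start and had 282 limb and 75 heart reads with a run of 51 bases. The region chr3:147217908-147218119, 610898 bp from the start of Ttll7, had 23 and 6 reads with a run of 37 bases. The region chr5:41571027-41571386, 527528 bp from Rab28, had 1170 and 943 reads with a run of 55 bases.

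A second set of regions with many reads held B box letters and lay near genes. tRNA genes are short and are transcribed by RNA polymerase III from promoter elements inside the gene, of which the B box is one. The letters GTTCGANTC occurred in 13 isolated limb TSTRs (2.26%), 7 clustered limb TSTRs (1.39%), 1 clustered heart TSTR and no isolated heart TSTR. The motif was chosen after values were seen, and the presence of whole tRNA genes was not tested. The 13 isolated regions had from 15 to 1235 limb reads with a median of 154, a median limb RPKM of 2.49 and a median ratio of 3.94. They held 7.08% of the limb reads of the isolated regions. Of these, 4 lay on chromosome 11 and 2 on chromosome 13.

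Most of the chromosome 11 regions stand within a short stretch around Per1, Hes7 and Aloxe3. The region chr11:68875619-68876638 had 1235 limb and 362 heart reads, a ratio of 3.94 (3.50 to 4.44), and held 2 matches. The region chr11:68923992-68924293, 9613 bp upstream of Hes7, an oscillating repressor of somite formation, had 762 limb and 233 heart reads. The region chr11:68937736-68938137, upstream of the epidermal lipoxygenase gene Aloxe3, had 396 and 146 reads. On chromosome 13, the regions chr13:21371564-21371865 near Gpx5 and chr13:21262059-21262377 near Trim27 had 264 and 173 limb reads against 77 and 87 heart reads. All of these were well covered in heart too. One member differed, as chr19:42858638-42859521, 4171 bp upstream of Hps1, had 43 limb reads and no heart reads, which is at least 16.6-fold higher in limb.

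The same part of chromosome 11 held the 2 isolated regions just over the distance limit. The region chr11:68886966-68887578 lies 10328 bp from chr11:68875619-68876638 and overlaps Snord118, which encodes the U8 snoRNA of ribosomal RNA processing. It had 1069 limb and 280 heart reads, a ratio of 4.41 (3.86 to 5.05). Just under the limit were chr3:66456908-66457245 and chr3:66466460-66466812, 9215 bp apart, with 17 limb reads each and 3 and 2 heart reads. Shox2 is the closest gene of both. The limit therefore falls within groups of neighbouring regions at both places.

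Isolated limb TSTRs were often found just upstream of gene starts. Against the GENCODE vM1 annotation, 130 of them (22.6%) lay within 1 kb upstream of the closest transcript start, 120 of these starts being of protein-coding genes. Within 1 kb downstream there were 7 (1.22%), and 8 contained a start. Among clustered limb TSTRs 22 (4.38%) lay within 1 kb upstream, among isolated heart TSTRs 29 (8.15%) and among clustered heart TSTRs 13 (2.72%). The authors removed regions that overlap annotated genes, mRNAs or ESTs, so few positions downstream of a start could be listed. The median distance to the closest start of any transcript was 6685 bp in isolated and 19615 bp in clustered limb TSTRs, and 17376 bp in isolated heart TSTRs. More than 10 kb from any start were 237 isolated limb TSTRs (41.1%) and 322 clustered ones (64.1%).

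**Figure D3:**
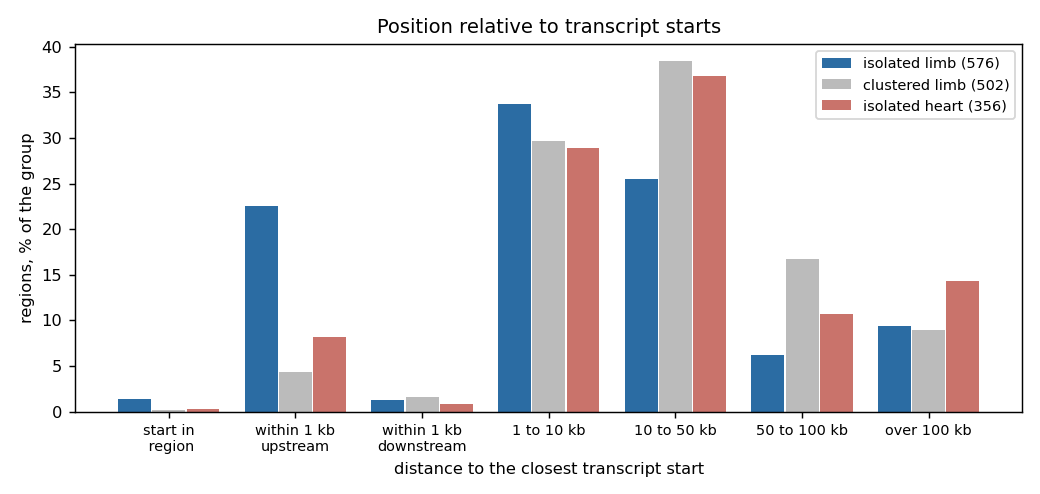
Share of regions (vertical, % of the group) by distance to the closest transcript start, for isolated limb (blue), clustered limb (grey) and isolated heart TSTRs (red). Within 1 kb upstream lie 22.6% of isolated limb, 4.38% of clustered limb and 8.15% of isolated heart TSTRs.

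The regions upstream of starts had few reads, a small heart signal and, for their base composition, more CpG than regions farther from starts. Their median was 23 limb and 6 heart reads, the median index was 0.662, and only 2 of the 130 had no heart reads (1.54%). Observed over expected CpG in their central 300 bases had a median of 0.537, and 0.204 in the 194 isolated regions at 1 to 10 kb. CpG-rich sequence is a mark of many mammalian promoters. The 22 clustered limb TSTRs within 1 kb upstream of a start had a median of 0.549, close to that of the isolated ones. The strand of the reads is not in the tables, so the direction of transcription relative to the gene was not examined.

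Among the 130, the highest lower bound of the ratio belonged to chr10:43297632-43298867, which ends 108 bp upstream of Cd24a, a gene for a small surface glycoprotein. It had 246 limb and 12 heart reads, a ratio of 23.7 (13.3 to 46.5). The next 4 by this bound followed. Upstream of Igfbp4, which encodes an insulin-like growth factor binding protein, chr11:98901238-98901737 had 79 limb and 7 heart reads, a ratio of 13.04 (6.04 to 33.5). Upstream of Mfap4, a microfibril-associated protein, chr11:61298323-61298723 had 26 limb reads and 1 heart read, a ratio of 30.04 (4.93 to 1231). Upstream of the matrix gene Adamtsl2, chr2:26933281-26934404 had 90 and 12 reads, a ratio of 8.66 (4.72 to 17.4). Upstream of Scube2, a gene for a secreted protein of hedgehog release, chr7:117009520-117009728 had 32 and 2 reads, a ratio of 18.5 (4.72 to 159). These regions were picked from the 130 for their ratios after values were seen. Their observed over expected CpG was 0.803, 0.597, 0.181, 0.190 and 0.119 in the order given. At the sequence shown above upstream of Lphn3, an adhesion receptor gene, chr5:81448661-81449018 had 75 limb and 15 heart reads.

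A similar number of isolated regions began just past the end of a gene. Within 1 kb beyond the annotated end of a protein-coding gene lay 117 isolated limb TSTRs (20.3%), 55 clustered limb TSTRs (11%), 68 isolated heart TSTRs (19.1%) and 41 clustered heart TSTRs (8.58%). The isolated limb regions there were longer than those near starts, with a median of 626 bp, and had a median of 49 limb and 21 heart reads. Their median index was 0.518 and their median CpG ratio 0.181. Only 4 regions were both past a gene end and within 1 kb upstream of a start. Among the members with high ratios, chr11:76487948-76489232 lies 771 bp past Bhlha9, a bHLH factor gene of the limb bud, and had 64 limb reads and no heart reads, at least 24.6-fold higher in limb. The region chr5:114242577-114243358, 380 bp past Tmem119, had 47 limb reads and 1 heart read, a ratio of 54.3 (9.28 to 2190). The region chr4:83917131-83918205, 241 bp past the zinc finger gene Bnc2, had 130 and 15 reads, a ratio of 10.01 (5.85 to 18.4). The region chr13:40810362-40810605, 439 bp past the ectodermal factor gene Tcfap2a, had 14 limb and no heart reads.

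Beyond 1 kb from a transcript start, the median index was higher at larger distances, distances to gene ends being left aside. It was 0.572 in the 194 isolated regions at 1 to 10 kb from a start, 0.625 in the 147 at 10 to 50 kb, 0.762 in the 36 at 50 to 100 kb and 0.844 in the 54 beyond 100 kb. Within 1 kb upstream of a start the median index was 0.662, above the medians at 1 to 10 kb and 10 to 50 kb. Regions without heart reads made up 8.25%, 11.6%, 27.8% and 37% of the 4 groups beyond 1 kb. Without the regions that held A or T runs, 39 regions were left beyond 100 kb, 20 of them without heart reads (51.3%), and the median index was 1. Clustered limb TSTRs gave medians of 0.549, 0.567, 0.673 and 0.821 at the same distances. Isolated heart TSTRs gave 0.632, 0.644, 0.646 and 0.609, and without runs 0.653, 0.691, 0.740 and 0.873. Median limb reads were 39.5, 31, 18.5 and 30.5 in the 4 groups of isolated limb regions, and as the index falls with read count its relation to distance was not separated from depth.

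**Figure D4:**
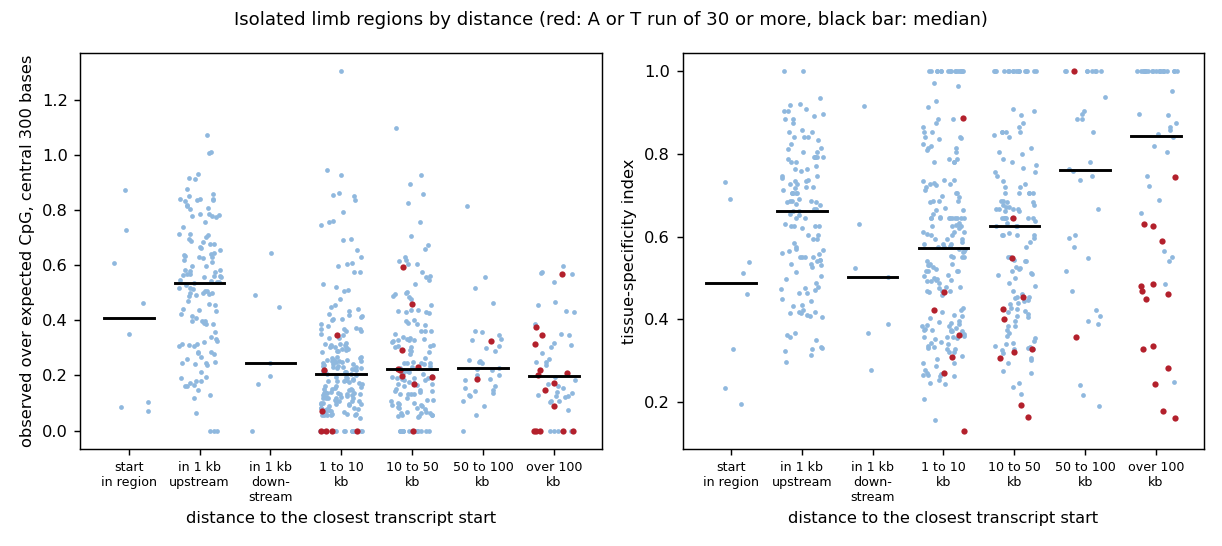
Observed over expected CpG in the central 300 bases (left) and tissue-specificity index (right) of the 576 isolated limb TSTRs by distance to the closest transcript start, 1 point per region, with the median as a black bar. Red points hold a run of at least 30 A or T. CpG has its highest median, 0.537, within 1 kb upstream, and the index its highest median, 0.844, beyond 100 kb.

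More than 10 kb from any start lay 41.1% of all isolated limb TSTRs, and a larger share of the 65 without heart reads. Of these, 47 (72.3%) lay more than 10 kb from any start, with a median distance of 47026 bp. Their limb reads ran from 10 to 227 with a median of 15, and 20 regions had 20 reads or more. The most covered was chr8:89876667-89878317, 1650 bp long and 116650 bp from Cbln1, a gene for a secreted synaptic organiser, with 227 limb reads and a limb RPKM of 0.715. Its ratio is at least 87.4, the highest of any isolated region. With the counting error of the limb reads included, the lower limit is 70.5. RT-PCR primers of the study match this region, 1 of 2 isolated limb TSTRs so matched. Next came chr13:56062849-56064540 with 167 limb reads, a ratio of at least 64.3. Its closest start is that of the histone variant gene H2afy at 121342 bp, and Pitx1, the hindlimb homeobox gene, starts 125297 bp away. The third, chr15:102591097-102591397, had 87 limb reads on 300 bp, a ratio of at least 33.5. It lies 38489 bp from Calcoco1 and 160137 bp from Hoxc13, an end gene of the HoxC cluster. All 3 had no read in the heart library.

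A few further members without heart reads, of 65, are given as examples. The region chr1:195331649-195332334, 1390 bp downstream of the start of Mir205, a microRNA of epithelial cells, had 50 limb reads, at least 19.3-fold higher in limb. The region chr11:96130312-96130849, 1922 bp upstream of the homeobox gene Hoxb9, had 31 limb reads. Regions chr14:29590563-29590883 and chr14:29608564-29608871, with 33 and 20 limb reads, lie 265927 and 283928 bp from Wnt5a, the Wnt ligand of limb outgrowth, though Lrtm1 is closer to both. These genes were chosen after values were seen.

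Most genes had a single isolated region. The 576 regions had 547 different closest protein-coding genes, of which 521 had 1 region, 24 had 2, Psmd7 had 3 and Slc4a3 had 4. For 37 isolated regions the same gene was also closest to a clustered limb TSTR, and for 24 to a heart TSTR. Gene lists of limb biology and of other cell types were compared by how many of their genes were closest to a region, without a test. Over all 22238 annotated protein-coding genes, 2.46% were closest to an isolated limb TSTR, 0.688% to a clustered limb TSTR, 1.47% to an isolated heart TSTR and 0.499% to a clustered heart TSTR.

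Of 46 limb patterning transcription factor genes, 9 were closest to 10 isolated limb TSTRs, 7 to 40 clustered limb TSTRs, 3 to 4 isolated heart TSTRs and none to a clustered heart TSTR. The isolated regions near them were thin. They had from 12 to 66 limb reads, and 5 of the 10 had no heart reads. These 5 all had under 20 limb reads. Heart reads were absent from 11.3% of all isolated limb TSTRs, and from 45 of the 195 with 10 to 19 limb reads. Shox2, a homeobox gene of the proximal limb, had 2 regions. Both chr3:66503204-66503483 and chr3:66543220-66543517, at 278871 and 238837 bp, had 14 limb and no heart reads, at least 5.39-fold higher in limb. Lhx9, a LIM homeobox gene of limb mesenchyme, had chr1:140744574-140745097, inside the gene, with 39 limb and 2 heart reads, a ratio of 22.5 (5.83 to 193). Lmx1b, which sets dorsal identity, had chr2:33521823-33522129 with 17 limb reads and 1 heart read, a ratio of 19.6 (3.08 to 821). The hedgehog effector Gli3 had chr13:15822704-15823040, 266892 bp from its start and 846 bp past its end, with 24 and 3 reads, a ratio of 9.24 (2.81 to 47.9). Its relative Gli2 had chr1:120953026-120953326 at 2831 bp with 16 and 3 reads, a ratio of 6.16 (1.76 to 33.0).

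The T-box genes Tbx4 and Tbx5 were also among these patterning genes. Tbx4, the hindlimb T-box gene, had chr11:85738871-85739148 at 28605 bp with 15 limb and no heart reads. Tbx5, which acts in forelimb and also in heart, had chr5:120272643-120273903 at 10769 bp with 66 limb and 34 heart reads, a ratio of 2.24 (1.46 to 3.50). The mesenchymal bHLH gene Twist2 had chr1:93745063-93745345, 459 bp past its end, with 13 limb and no heart reads. With so few limb reads the folds against 3 heart reads are low, at least 5.78-fold for Tbx4 and 5.01-fold for Twist2.

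Of 37 limb signalling genes, 5 were closest to an isolated limb TSTR each, 1 to 2 clustered limb TSTRs, 1 to an isolated heart TSTR and 2 to 14 clustered heart TSTRs. Lef1, a nuclear effector of Wnt signals, had chr3:130809037-130809529, 3860 bp upstream, with 49 limb and 5 heart reads, a ratio of 11.3 (4.54 to 36.4). Bmp2, a ligand, had chr2:133377427-133377715, 180 bp upstream, with 15 limb reads and 1 heart read, a ratio of 17.3 (2.67 to 729). The receptor genes Ptch1 and Fgfr2 had chr13:63608848-63609222 with 23 and 5 reads and chr7:137305573-137305928 with 20 and 5 reads, the latter 37 bp past the end of Fgfr2. Dusp6, a phosphatase induced by Fgf signals, had chr10:98723302-98724411, 1454 bp upstream, with 115 limb and 60 heart reads, a ratio of 2.21 (1.61 to 3.08). Dusp6 thus had the most reads and the lowest ratio of the 5.

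Of 24 skeletal genes, 4 were closest to an isolated limb TSTR each, 1 to 4 clustered limb TSTRs and 2 to 4 isolated heart TSTRs. Nkx3-2, a homeobox gene of early cartilage, had chr5:42177155-42178167 with 58 limb and 33 heart reads, a ratio of 2.03 (1.30 to 3.21). Col1a2, a collagen gene, had chr6:4407210-4408168 with 30 and 13 reads, a ratio of 2.67 (1.35 to 5.57). Osr1 had chr12:9589773-9590069 with 12 and 3 reads, and Trps1, a repressor of chondrocyte maturation, had chr15:50722871-50723164 with 14 and none. The collagen region had the lowest limb RPKM of all isolated regions, 0.163.

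Lists of other cell types, like the skeletal list, are too short to read at this share of genes. None of 20 muscle, 13 heart or 6 nerve genes was closest to an isolated limb TSTR, while 3 heart genes were closest to 3 isolated heart TSTRs and 3 to 14 clustered ones. Of 8 blood genes 1, Alas2, which encodes an erythroid enzyme of haem synthesis, had a region, chrX:146944902-146945434 with 71 limb and 33 heart reads. Of 17 ectoderm genes 1, the epithelial adhesion gene Epcam, had chr17:88012875-88013395, 21924 bp upstream. It had 51 and 12 reads, a ratio of 4.91 (2.58 to 10.1). Of 9 endothelium genes 1, the endothelial and endodermal factor Sox17, had chr1:4561497-4561789 with 12 and none. Among 30 cell cycle genes, 3 were closest to 4 isolated regions. Mcm5, a subunit of the replication helicase, had chr8:77632252-77632990, 437 bp upstream, with 80 and 26 reads, and chr8:77652543-77653363 past it with 60 and 20. Their ratios were 3.55 (2.26 to 5.77) and 3.47 (2.06 to 6.07). Aurkb, a mitotic kinase, had chr11:68855330-68855633 with 446 and 236 reads, and Mki67, a proliferation marker, had chr7:143248489-143248743 at 340428 bp with 12 and none.

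The longest isolated region, chr2:162763692-162765546 with 1854 bp, lies 3655 bp upstream of L3mbtl1 and 6296 bp from Srsf6, a splicing factor gene, and had 389 limb and 295 heart reads. Its ratio was 1.52 (1.31 to 1.78). The second lowest ratio, 1.37 (1.18 to 1.602), was at chr13:48640423-48641925, 6783 bp upstream of Mirlet7a-1, a let-7 microRNA gene, with 371 limb and 312 heart reads. It held no long run.

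Few isolated limb TSTRs stood beside a heart TSTR. Within 10 kb of a row of the heart list lay 5 (0.868%), against 13 clustered limb TSTRs (2.59%). The closest, chr9:79608914-79609216 near the respiratory chain gene Cox7a2, was 221 bp from a heart TSTR and had 109 limb and 15 heart reads. The next, chr14:73999473-74000469 near Sucla2, was 794 bp from one and had 48 and 28 reads. The third, chr15:93326500-93326798 near the planar polarity gene Prickle1, was 1191 bp from one and had 12 and 3 reads.

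Cloning primers of the reporter assays bracket 4 isolated limb TSTRs, counted by primer letters alone. The region of element mm1062, chr6:91566876-91567367, had 53 limb and 2 heart reads, a ratio of 30.6 (8.07 to 259). Its closest protein-coding start is that of Slc6a6 at 66694 bp, and Wnt7a, the dorsal Wnt ligand, starts 205520 bp away. The region of mm1061, chr18:55784105-55785185, had 40 and 4 reads, a ratio of 11.6 (4.18 to 44.5). The region of mm757, chr1:167979179-167979497, had 24 and 3 reads, a ratio of 9.24 (2.81 to 47.9). The region of mm734, chr9:41698965-41699865, had 66 and 31 reads, a ratio of 2.46 (1.58 to 3.90). It is also the other region matched by RT-PCR primers.

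Short motifs were counted in the central 300 bases of every region, on both strands, beside the share over all 1912 regions. The homeodomain letters TAATTA occurred in 7.81% of isolated limb TSTRs, 12.5% of clustered limb TSTRs and 11.1% of all regions. T-box (TCACAC) and SOX (ACAATG) letters occurred in 12.3% and 15.3% of isolated limb TSTRs, against 16.4% and 17.7% of all. The HOX13 letters CAATAAA were found in 6.77% and 7.48%, PITX (TAATCC) in 9.03% and 9.94%, the GATA factor letters AGATAA in 16.5% and 19.4% and the TATA box letters TATAAA in 20.1% and 24.1%. All of these shares were lower in isolated regions than over all regions. The E-box CAGCTG (13.4% and 11.9%) and E2F (TTCCCGC, 2.26% and 1.31%) were somewhat more frequent in isolated regions. AP1 (TGANTCA, 8.85% and 8.11%), TEAD (ACATTCC, 5.03% and 4.5%) and GLI (GGGTGGTC, 0.694% and 0.575%, 4 isolated regions) were near the overall share. The cell cycle element TTTGAA (28.6% and 30.1%) and CCAAT (35.8% and 36.8%) were also near the overall share, and the NRF1 motif occurred in 3 isolated regions. Within 1 kb upstream of starts, E2F letters occurred in 6 of 130 regions (4.62%). No motif searched lies within another, though CCAAT and HOX13 letters can overlap at their ends. Over the whole set GC content had a median of 44% in isolated, 42% in clustered limb and 40.7% in isolated heart TSTRs.

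Few isolated limb TSTRs touched annotated genes in GENCODE vM1. They were 23 (3.99%), of which 10 overlapped a protein-coding gene and 15 an exon. By flanking protein-coding genes, 135 (23.4%) stood between 2 starts, 151 (26.2%) between 2 ends and 280 (48.6%) between a start and an end. Clustered limb TSTRs divided similarly outside genes, with 19.7%, 25.5% and 48%.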

How the data were processed

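Total RNA of 2 samples, 1 pooled limb and 1 pooled heart sample, was sequenced in 50-base reads after ribosomal depletion. The authors filtered reads with CASAVA 1.8, mapped them to the mm9 genome with bowtie2 (a version is not given in the sources used here), excluded repetitively mapped reads, extended alignments to 200 bp and called regions of at least 10 reads with USeq. Regions that touched a refGene, mRNA or EST entry were dropped, and those higher in 1 tissue were listed. The deposited read counts are raw and unstranded. The deposited RPKM values were scaled by the authors by length and by each tissue's total reads. For the z-test the authors took mappable reads outside ribosomal regions as totals, which need not equal the totals implied here. In the heart list the index of heart over limb went as low as -0.0142, a slightly higher RPKM in limb. Ratios with the totals of the z-test were not computed.

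The members and lists were chosen with earlier results of these data known. Distances, overlaps and sequence features were computed on NCBIM37 with GENCODE vM1 in Python 3.11.15 (pysam 0.24.0, pandas 2.3.3, scipy 1.17.1). Distances run from the region's edge, and annotation rows were taken as 1-based. Starts in the tables were read as counted from 0, which is not stated, and coordinates are printed as deposited. Ratios are of reads over totals, and their exact 95% intervals (Clopper-Pearson, conditional on both tissues' reads) cover counting error only, a heart count of 0 being set to 3 reads. The interval was tested on simulated counts drawn without the z-test by which the authors listed regions. How it covers the ratios of regions selected in that way was not examined. No test between tissues, gene lists or classes was made, as there is 1 pool per tissue. Regions were named by rank (reads, RPKM, ratio, length, distance, gap), by the study's primers (at least 14 bases matched), or by a closest protein-coding gene in a gene list. Run and B box searches, and named regions said to be picked after values were seen, lie outside that rule. Alternatives tried were gap limits, read minimums and annotation choices. Values of some named regions are not reported here.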

Additional observations from a re-analysis of the deposited data

How the results depend on the processing

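Of 63 values recomputed for 9 results, 50 stayed within their limits (within 1.5 times for counts, within the interval of the median otherwise). These include every value at the shorter and the 2 longer gap limits, and with heart rows as neighbours. Keeping members with at least 20 limb reads moved 7 results. It left 381 of 576 regions, 134 at least 4-fold higher, 20 without heart reads and 147 more than 10 kb from a start, with a median length of 501 bp, limb RPKM of 0.4293 and index of 0.5075. A fold of 2 gave 514 regions, at most 1 heart read gave 105, and unscaled counts gave a median index of 0.5789. With protein-coding starts the median distance was 8997 bp. With protein-coding genes 10 regions overlapped a gene, and 13 when at least 50% of the region had to be covered. Leaving out regions with A or T runs, an alternative added after the data were seen, left each of the 9 results within its limits. No paired analysis was possible because each tissue is 1 pool, and no replicate could be left out. A region without heart reads is below 3 reads at this depth. Strand, chromatin and conservation were not analysed here.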

Other observations

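Regions with A or T runs were short in both lists. In the heart list 43 of the 47 isolated regions with a run of at least 30 bases were at most 260 bp long, and in the limb list 31 of 34. In the 47 heart regions limb reads had a median of 90 and heart reads of 149, and the median index was 0.225, against 0.665 in the other 309 isolated heart regions. They held 45.5% of the heart reads of all isolated heart regions.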
